A study of Rattus norvegicus with 4 samples.

Results

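A set of 74 probe sets for 51 genes, nearly all known as products of the liver, stood out on 1 of 4 rat spinal cord arrays. Total RNA of lumbar segments L4 to L6 had been hybridised to 1 oligonucleotide array per sample, 2 of them from rats whose label gives an age of 2 days and 2 from rats labelled 12 days. Strain, sex and treatment are not in the labels used here, nor is it stated that replicates are separate animals, so any p-value measures only the spread between these arrays, which may be technical. The members were chosen by their measured intensities. After quantile normalization, with values under 40 set to that floor, a probe set with 1 gene symbol other than H19 was a member if it read at least 200 on the first array labelled 12 days old (12-day replicate 1) and at least 3 times the highest of the other 3 arrays. This took 74 of the 6994 probe sets with such a symbol, or 1.06%, and 51 of their 4730 genes. Because those values chose the members, they are given below as a description and without a test.

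The liver makes most proteins of blood plasma, among them albumin, the clotting factors, the apolipoproteins and many protease inhibitors. Its hepatocytes also make glucose, dispose of nitrogen as urea, take up bile acids and oxidise foreign compounds with cytochromes P450. The liver of the fetus makes alpha-fetoprotein and hosts the formation of blood cells, and both decline around and after birth in rodents. Nervous tissue makes some of these transcripts at its own sites, such as transthyretin in the choroid plexus and apolipoprotein E in glia.

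Genes of nervous tissue were measured on 12-day replicate 1 as on the array of the same age. The synaptic gene Snap25 read 1389 and 1287 on the 2-day arrays, 713 on 12-day replicate 1 and 696 on 12-day replicate 2. Other neuron genes were lower on 12-day replicate 1 than on 12-day replicate 2, namely Syp at 958 and 1091, Nefl at 1964 and 2189 and Gad1 at 361 and 379. Chat was higher, at 98.8 and 71.8. The median log2 ratio of 12-day replicate 1 over 12-day replicate 2 was -0.16 for 17 measured genes of neurons and -0.06 for 12 of myelin and astrocytes, against -0.05 for all 4730 genes. Myelin basic protein (Mbp) read 7088 and 6664 on the 2-day arrays and 1056 and 994 on the 12-day arrays, an order opposite to textbook development, so the ages here are those of the labels. The median deposited intensity was between 102.8 and 106 on the other 3 arrays and 117 on 12-day replicate 1, before normalization.

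Promoter sequence was not used in choosing the set, and letters of HNF1 or C/EBP sites were found in many of its genes. RefSeq promoter sequences (build GRCr8) matched 43 of the 51 genes, and the 250 bases before each listed start were searched on both strands. The core letters of the HNF1 site, GTTAAT, for a liver transcription factor, was found in 16 of the 43 genes (37.2%) and in 4.79% of 3866 genes of the array with a sequence. A spelling of the site of C/EBP factors, TTGCNNAA, was also found in 16 of the 43 genes (37.2%), against 8.67% of the array's genes. The HNF4 site CAAAGTCC was found in 3 genes (6.98%), all of enzymes, namely Cps1, Cyp3a2 and Cyp3a23-3a1, against 1.37% of the array's genes. The TATA box, TATAAA, was found in 18.6% and 10.9%. Of all 33469 promoters in the table, 6.45% held the HNF1 spelling, 9.22% the C/EBP spelling, 1.14% the HNF4 spelling and 12.9% the TATA box. At least 1 of the HNF1, C/EBP and HNF4 spellings was present in 25 of the 43 genes (58.1%) and in 13.9% of the array's genes. Both the HNF1 and the C/EBP spelling were held by 9 genes, among them the granulocyte gene RatNP-3b. No matches of different motifs overlapped in these genes. A match is a run of letters and not a bound site, and no test was made of these shares.

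**Figure D1:**
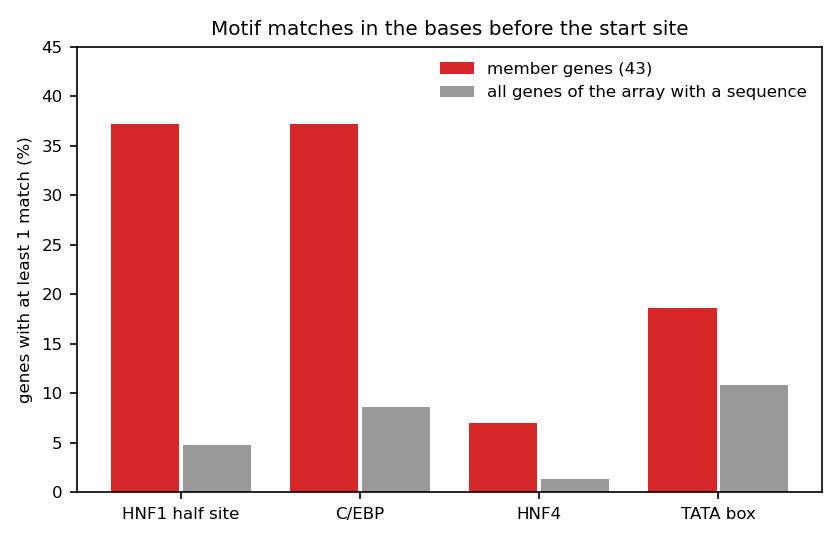
Share of genes (y axis, %) with at least 1 match to each motif in the 250 bases before the start, for the 43 member genes with a sequence (red) and the 3866 genes of the array with one (grey). The HNF1 letters are at 37.2% of member genes and 4.79% of the array's genes.

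The following stretches of 150 bases show those letters, in capitals, in genes of plasma proteins, clotting, growth, bile acid uptake and urea formation. They end at the annotated edge of the gene and are written 5′ to 3′ on the gene's strand in GRCr8. They lie at chr14:17907044-17907193 (- strand) for Alb, chr14:17875646-17875795 (- strand) for Afp, chr2:170672019-170672168 (+ strand) for Fga and chr2:170700876-170701025 (- strand) for Fgb. Those of Igfbp1, Slc10a1 and Cps1 lie at chr14:86261127-86261276 (+ strand), chr6:106357945-106358094 (- strand) and chr9:76063713-76063862 (+ strand). In the genes Alb, Afp, Fga, Fgb and Slc10a1 the capitals mark the HNF1 letters and a C/EBP spelling, with a TATA box in Afp besides. In Igfbp1 they mark the HNF1 letters and in Cps1 an HNF4 site. A match on the other strand appears here as its reverse complement.
Alb: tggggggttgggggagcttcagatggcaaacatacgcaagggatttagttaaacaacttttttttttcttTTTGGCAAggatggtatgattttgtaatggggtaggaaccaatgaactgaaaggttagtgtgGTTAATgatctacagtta
Afp: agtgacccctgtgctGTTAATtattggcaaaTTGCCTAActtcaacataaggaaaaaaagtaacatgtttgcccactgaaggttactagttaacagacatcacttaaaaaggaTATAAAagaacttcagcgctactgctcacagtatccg
Fga: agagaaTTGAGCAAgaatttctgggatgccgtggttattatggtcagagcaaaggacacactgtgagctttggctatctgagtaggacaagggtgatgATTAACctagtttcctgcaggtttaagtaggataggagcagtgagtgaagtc
Fgb: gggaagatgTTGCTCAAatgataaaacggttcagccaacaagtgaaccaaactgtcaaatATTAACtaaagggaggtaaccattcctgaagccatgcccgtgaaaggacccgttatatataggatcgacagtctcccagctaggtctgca
Igfbp1: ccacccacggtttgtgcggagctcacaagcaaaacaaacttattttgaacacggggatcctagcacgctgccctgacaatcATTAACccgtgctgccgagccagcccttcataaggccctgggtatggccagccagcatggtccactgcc
Slc10a1: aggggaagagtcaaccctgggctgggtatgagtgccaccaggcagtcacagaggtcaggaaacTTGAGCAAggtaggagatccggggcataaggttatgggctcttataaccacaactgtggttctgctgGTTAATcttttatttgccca
Cps1: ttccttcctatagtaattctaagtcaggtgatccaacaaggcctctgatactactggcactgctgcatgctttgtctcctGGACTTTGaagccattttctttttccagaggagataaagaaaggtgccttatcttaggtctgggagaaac

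Plasma carrier proteins formed the largest group. Of 15 measured genes of that list 10 were members, as were 1.08% of all 4730 genes. The same share over all genes is the background of the list counts below. The median log2 ratio of 12-day replicate 1 over replicate 2 was 4.24 for the 15 genes and -0.05 for all genes. Albumin (Alb), the main protein of plasma, read 3951 on 12-day replicate 1 and lay at the floor of 40 on each of the other arrays, so it was at least 98.8-fold higher there. Another probe set of Alb read 3838 on that array, 77.8 on 12-day replicate 2, 71.3 on 2-day replicate 2 and 40 on 2-day replicate 1, a 49.4-fold difference from the next array. Alpha-fetoprotein (Afp), the fetal relative of albumin, read 3250 on 12-day replicate 1, 61.7 on 12-day replicate 2 and 40 on both 2-day arrays. All 4 of its member probe sets lay between 232 and 3250 on 12-day replicate 1, so the fetal gene and the adult gene were both high on that array.

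Other carriers bind minerals, haem, hormones or vitamins. Ahsg (fetuin-A), which keeps calcium phosphate in solution, read 3149 on 12-day replicate 1, 101 on 12-day replicate 2, 40 on 2-day replicate 1 and 156 on 2-day replicate 2, 20.2-fold above the highest of these. Haptoglobin (Hp), which binds free haemoglobin, read 2906 against 126, 53.4 and 70.8 in the same order. Transthyretin (Ttr), a carrier of thyroid hormone, read 1882 against 69.5, 40 and 48.4. By these probe sets all 3 showed low values above the floor on 12-day replicate 2 and on 2-day replicate 2. A further member probe set of Ahsg and of Ttr lay at the floor on all the other arrays. The remaining carriers were Rbp4, which carries retinol, Hpx, which binds haem, Apoh, Ambp and Gc, the vitamin D-binding protein. They read between 398 (Gc) and 1508 (Rbp4) on 12-day replicate 1 and between 40 and 75.3 on the other arrays, by the probe set highest on 12-day replicate 1.

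**Figure D2:**
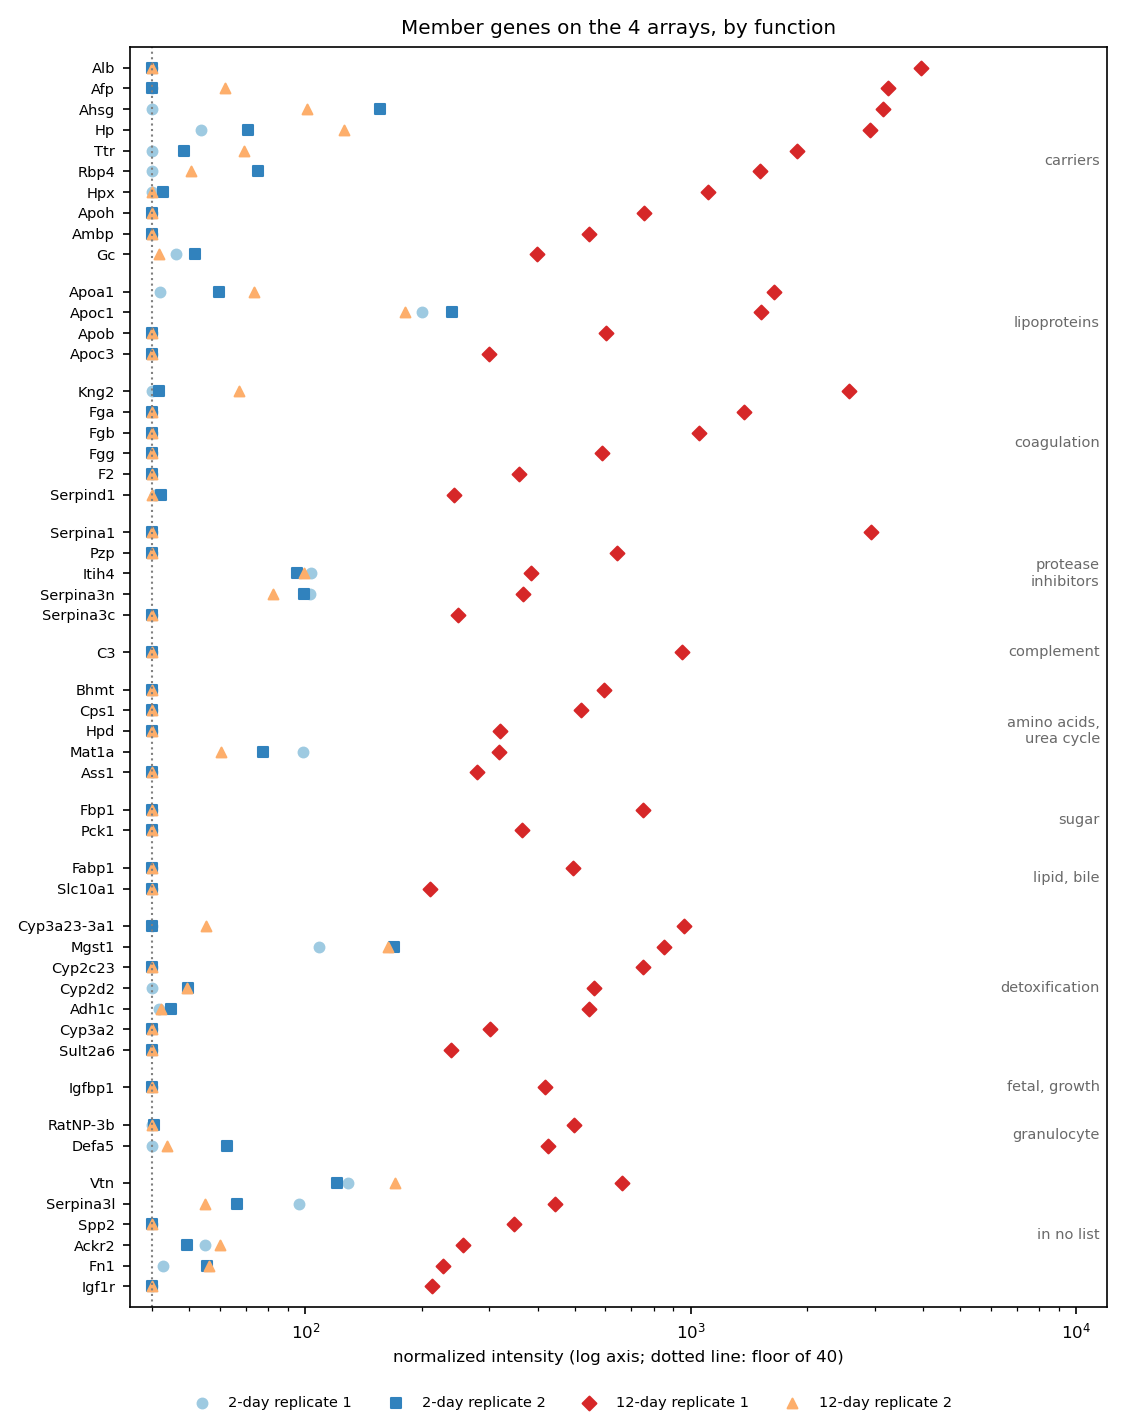
Normalized intensity (x axis, log scale) of the 51 member genes on each array, by the member probe set highest on 12-day replicate 1, in groups of function. Red diamonds, 12-day replicate 1, lie at 210 or above, and points of the other 3 arrays that share the floor of 40 cover each other on the dotted line.

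Apolipoproteins, which carry lipid in plasma, gave 4 members among 11 measured genes. Apoa1, the main protein of high-density lipoprotein, read 1645 on 12-day replicate 1, 73.5 on 12-day replicate 2, and 41.9 and 59.8 on the 2-day arrays, a 22.4-fold difference from the next array. Apoc1 read 1519 against 181, 201 and 240, so that it was well above the floor on every array and 6.33-fold higher on 12-day replicate 1. Apob, the structural protein of very-low-density lipoprotein, read 602 by its member probe set, which lay at the floor elsewhere, at least 15.1-fold lower. Another Apob probe set read 269 on 12-day replicate 1 and 142, 161 and 146 on the others. A dimmer Apob probe set read 124 against 85.9, 110 and 94.6, and the remaining ones lay at 40 on 12-day replicate 1. Apoc3, an inhibitor of lipoprotein lipase, read 299 against the floor, while another of its probe sets read 567 on 12-day replicate 1 and 268, 233 and 221 on the others. Apoe, which glia also make, was no member and read 5016 on 12-day replicate 1, 3676 on 12-day replicate 2, and 5515 and 5245 on the 2-day arrays. The median log2 ratio of the 12-day arrays over this list was 1.08.

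Clotting and kinin genes gave 6 members among 13 measured, with a median log2 ratio of 2.18. Kininogen (Kng2), the precursor of kinins, read 2577 on 12-day replicate 1, 67.4 on 12-day replicate 2, and 40 and 41.8 on the 2-day arrays. The 3 chains of fibrinogen, the clot-forming protein, were all members, and their member probe sets lay at the floor on every other array. Fga read 1371 on 12-day replicate 1, Fgb 1048 and Fgg 588, at least 34.3-fold, 26.2-fold and 14.7-fold above the other arrays. Prothrombin (F2), the zymogen of thrombin, read 359 against the floor, at least 8.97-fold. Serpind1 (heparin cofactor II), an inhibitor of thrombin, read 243 on 12-day replicate 1, 40 on 12-day replicate 2, and 40.8 and 42.1 on the 2-day arrays. Plasminogen (Plg), the zymogen of plasmin, showed the same order but missed the level, at 182 on 12-day replicate 1 and 40 on the others.

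Protease inhibitors of plasma gave 5 members among 13 measured genes, with a median log2 ratio of 1.81. Alpha-1-antitrypsin (Serpina1), the inhibitor of neutrophil elastase, read 2924 on 12-day replicate 1 and 40 on each of the others, and all 3 of its probe sets were members. Pzp, of the alpha-macroglobulin family, read 642 against the floor, at least 16.1-fold, although its other probe set lay at 40 on every array. Itih4 read 385 on 12-day replicate 1, 99.2 on 12-day replicate 2, and 104 and 95.0 on the 2-day arrays. Serpina3n read 367 against 82.4, 103 and 99.1. Both stood above the floor on every array, with folds of 3.72 and 3.56, among the lowest of the set. Serpina3c read 249 against the floor on the others.

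Among 13 measured complement and acute phase genes C3, the central complement component, was the member, with a list median of 1.03. It read 946 on 12-day replicate 1 and 40 on the other arrays by 1 probe set and 621 against the floor by another. At least 2-fold above the highest other array were 6 of the 13 genes, C3 included.

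Enzymes of amino acid breakdown and the urea cycle gave 5 members among 28 measured genes, with a list median of 0.28. Cps1, the entry enzyme of the urea cycle, read 520 on 12-day replicate 1 and the floor on the others, and Ass1, a later enzyme of the cycle, read 279 against the floor, at least 6.98-fold. Bhmt, which methylates homocysteine, read 594 against the floor. Hpd, of tyrosine breakdown, read 320 against the floor, and 301 against the floor by another member probe set. Its remaining probe set read 49.7 on 12-day replicate 1, 51.7 on 12-day replicate 2, and 85.2 and 57.1 on the 2-day arrays. Mat1a, which makes S-adenosylmethionine in liver, read 318 on 12-day replicate 1, 60.2 on 12-day replicate 2, and 98.7 and 77.6 on the 2-day arrays, and at 3.22-fold it had the lowest fold of all members. Arginase (Arg1), the last enzyme of the cycle, missed the level at 166 with 40 on the others, as did tyrosine aminotransferase (Tat) at 151. The ornithine transcarbamylase gene Otc gave 132, 70.2, 92.4 and 80.1 on 12-day replicates 1 and 2 and 2-day replicates 1 and 2, by its brighter probe set.

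Of the enzymes of gluconeogenesis, the making of glucose, Fbp1 and Pck1 were members. Fbp1 read 749 on 12-day replicate 1 and Pck1 365, and both lay at the floor on each other array, a difference of at least 18.7-fold and 9.13-fold. They were the members among 11 measured genes of sugar metabolism, whose median log2 ratio was 0.49. Fatty acid, ketone and bile acid genes gave 2 members among 29, with a median of 0.31. Fabp1, the fatty acid-binding protein of liver, read 494 against the floor, at least 12.3-fold. Slc10a1, the sodium-coupled bile acid transporter of hepatocytes, read 210 against the floor, close to the level that membership required. Cyp7a1, the rate-limiting enzyme of bile acid synthesis, lay at the floor on all 4 arrays by both probe sets.

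Detoxifying enzymes gave 7 members among 60 measured genes, with a list median of 0.30. Cyp3a23-3a1, a cytochrome P450, read 960 on 12-day replicate 1, 55.1 on 12-day replicate 2 and 40 on both 2-day arrays. Mgst1, a glutathione transferase of membranes, read 853 against 164, 109 and 170, above the floor throughout. Cyp2c23 read 752 on 12-day replicate 1 with the others at the floor. Cyp2d2 read 560 on that array, 49.4 on 12-day replicate 2, and 40 and 49.5 on the 2-day arrays. The alcohol dehydrogenase Adh1c read 545 against 42.3, 41.8 and 44.9. The P450 gene Cyp3a2 and the sulfotransferase Sult2a6 read 301 and 239 against the floor. Cyp2c11, known as a P450 of adult male liver, read 40 on 12-day replicate 1 by each of its 3 probe sets. Cyp3a2 and Cyp3a23-3a1 are close copies of each other, as are the Sult2a and Serpina3 genes, so their probe sets may share transcripts.

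Fetal and growth genes were mixed. Beside Afp, Igfbp1, a binding protein of insulin-like growth factors made by liver, read 419 against the floor on the others, at least 10.5-fold. These were the members among 18 measured genes, whose median log2 ratio was -0.07. By 1 probe set the growth factor Igf2 was higher on both 12-day arrays. That probe set read 1564 on 12-day replicate 1, 867 on 12-day replicate 2, and 520 and 624 on the 2-day arrays. The brightest of its other probe sets read 252 and 273 on the 12-day arrays and 292 and 296 on the 2-day arrays. None of the dimmer Igf2 probe sets was higher on both 12-day arrays. Igfbp2 read 787 and 540 on the 12-day arrays and 266 and 320 on the 2-day arrays. Dlk1 read 199 and 212 on the 12-day arrays and 182 and 173 on the 2-day arrays.

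Blood cell genes fell into short lists. Of 14 measured red cell genes 0 were members, which is near the share over all genes (1.08%). The median log2 ratio of the red cell genes was -0.01. Beta-globin (Hbb) read 4764 and 4817 on the 12-day arrays and 2193 and 2563 on the 2-day arrays, so the 12-day arrays were alike. Alas2, the haem-synthesis enzyme of red cells, read 316 and 275 on the 12-day arrays and 187 and 212 on the 2-day arrays. The embryonic globin Hbe1 lay between 40 and 47.5 on all arrays. Of 6 granulocyte and platelet genes 2 were members, both alpha-defensins, which are antimicrobial peptides. RatNP-3b read 496 on 12-day replicate 1, 40 on 12-day replicate 2, and 40 and 40.4 on the 2-day arrays. Defa5 read 425 against 43.8, 40 and 62.4. The granulocyte genes S100a9 and S100a8 read 173 and 156 on 12-day replicate 1, under the level, with 40 on 12-day replicate 2 and no more than 48.5 on the 2-day arrays. The platelet genes Pf4 and Itga2b read 174 and 105 on 12-day replicate 1 and 166 and 103 on 12-day replicate 2.

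Another 6 member genes were in none of the lists. Vitronectin (Vtn), an adhesive protein of plasma, read 662 on 12-day replicate 1, 171 on 12-day replicate 2, and 129 and 121 on the 2-day arrays. Serpina3l read 444 against 54.8, 96.3 and 66.4, and the secreted phosphoprotein Spp2 348 against the floor. Fibronectin (Fn1), a matrix and plasma protein, read 227 against 56.2, 42.6 and 55.4 by its member probe set, and another probe set read 676 against 247, 165 and 178. The chemokine-scavenging receptor Ackr2 read 256 against 60.2, 55.0 and 49.4. Igf1r, the receptor of insulin-like growth factor 1, read 212 against the floor, while its other probe set read 58.0 on 12-day replicate 1 and 78.9 on 2-day replicate 1.

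**Figure D3:**
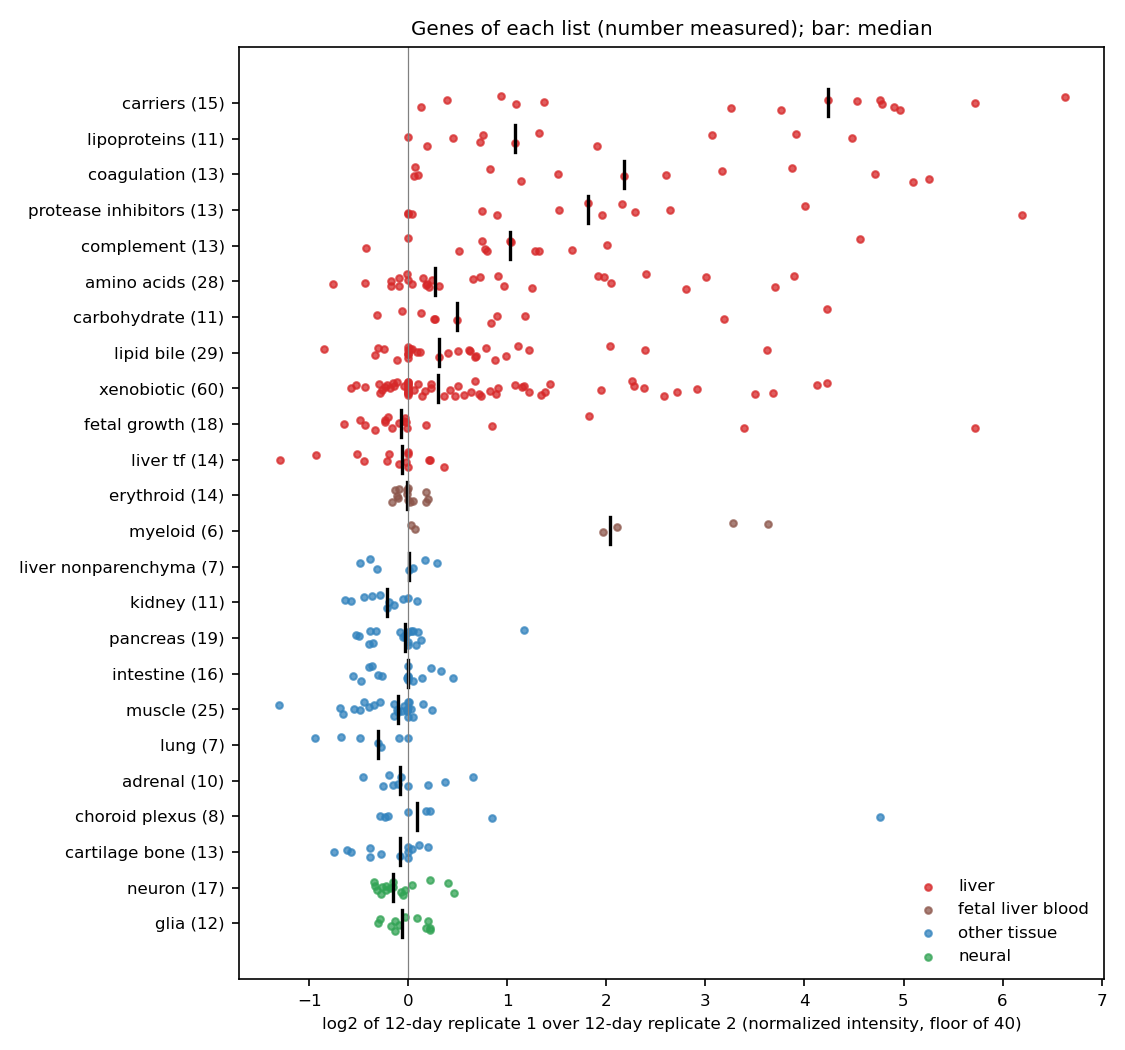
Log2 ratio of 12-day replicate 1 over 12-day replicate 2 (x axis) for each measured gene of 24 lists, by the probe set of highest mean, with the list median as a bar. The medians of the plasma protein lists, from 1.03 for complement to 4.24 for carriers, lie to the right, and those of red cells, other tissues and nervous tissue lie between -0.31 and 0.09.

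The lists of other tissues were measured in the same way. The fold over the highest other array also chose the members, and 43 member genes lie in the liver lists. The lists were chosen with earlier results known, so the shares that follow are a description and no separate support. With each gene taken by its probe set of highest mean, 66 of 224 genes of the liver lists (29.5%) were at least 2-fold above the highest other array on 12-day replicate 1, against 95 of all 4730 genes (2.01%). Of 108 genes of kidney, pancreas, intestine, skeletal muscle, lung, adrenal, cartilage and bone, choroid plexus and liver support cells that are in no liver list, 0 were, and of 29 neural genes 0 were. At the choroid plexus, Ttr was the member among 8 measured genes, and the median log2 ratio was 0.09. Transcription factors of hepatocytes, 14 measured, held 0 members, near the 1.08% over all genes, and had a median of -0.06. The brightest probe set of Hnf4a read 402 on 12-day replicate 1, 465 on replicate 2, and 471 and 411 on the 2-day arrays. That of Cebpa read 142, 111, 132 and 110 in that order. Dimmer probe sets of Hnf4a read 98.1, 91.3, 108 and 84.5, and 65.2, 60.6, 81.6 and 55.7. The dimmer probe set of Cebpa read 73.9, 77.4, 58.8 and 86.2. In whole tissue, more cells of a type and more RNA per cell cannot be told apart.

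The thresholds took few probe sets on the other arrays. With each other array in the place of 12-day replicate 1, the same thresholds took 2 probe sets (0.0286%) on 2-day replicate 1, 2 (0.0286%) on 2-day replicate 2 and 1 (0.0143%) on 12-day replicate 2. Those were Cnbp and Pex10, Dedd and Tgfa, and Ppig, none of them in any list. On 12-day replicate 1 the folds of the members ran from 3.22 to 98.8 with a median of 12.3, where 44 of the 74 folds are lower bounds because the other 3 arrays lay at the floor. At least 10-fold was reached by 42 members and at least 50-fold by 7.

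**Figure D4:**
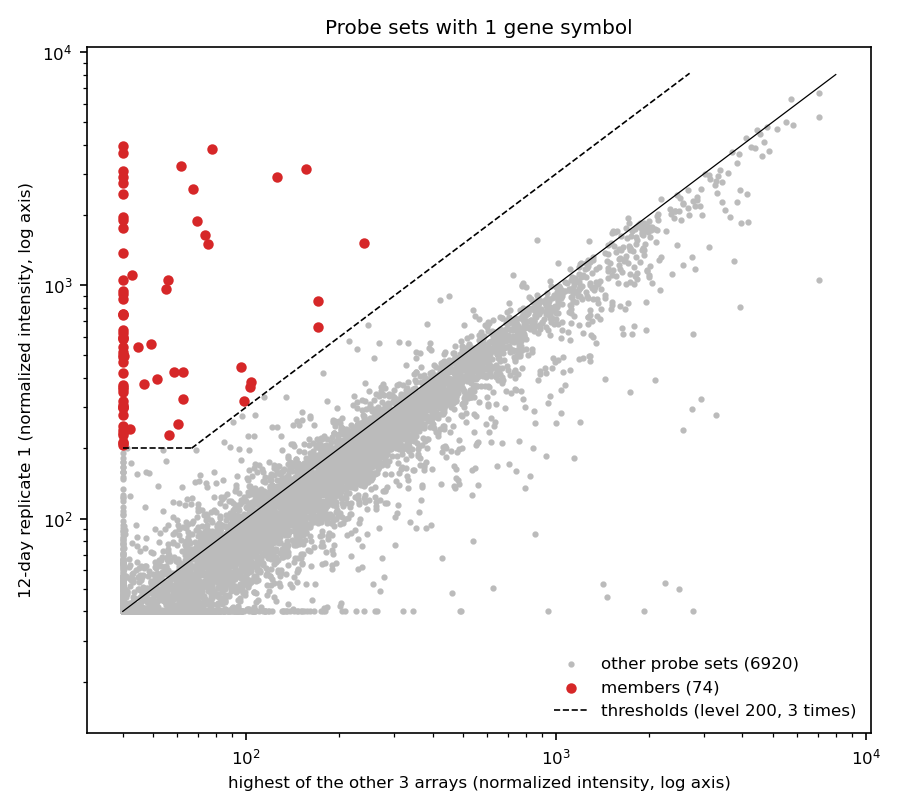
Each of the 6994 probe sets with 1 symbol, by its highest value on the other 3 arrays (x axis) and its value on 12-day replicate 1 (y axis), both log scales of normalized intensity. The 74 members (red) lie above the dashed thresholds, 44 of them at the floor of 40 on the x axis, and the solid line marks equal values.

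Just inside the level of 200 lay Sult2a6 at 206, Slc10a1 at 210 and Igf1r at 212. Just outside it lay the glutathione transferase Gsta3 at 199.7, the GABA receptor subunit Gabrr3 at 197 and the sulfotransferase Sult2a1 at 191. By fold, Mat1a at 3.22, Serpina3n at 3.56 and Itih4 at 3.72 lay just inside. A further probe set of Fga at 2.90, the P450 gene Cyp2e1 at 2.85 and Rpl19l4 at 2.82 lay just outside. 

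A further 59 genes of the liver lists read at least 200 on 12-day replicate 1 without being members. Of these 8 were at least 2-fold above the highest other array, by the probe set with the highest fold among those that read at least 200 there. They were the P450 gene Cyp2e1, the protease inhibitor A2m, the copper carrier Cp, Apoa2, the fatty acid transporter Slc27a2, the epoxide hydrolase Ephx1, the complement regulator C4bpb and the acute phase protein Crp. A2m read 575 on 12-day replicate 1, 168 on 12-day replicate 2, and 184 and 215 on the 2-day arrays. Cp read 277 against 107, 94.2 and 102, and Crp 867 against 422, 328 and 377. Another 26 were highest on 12-day replicate 1 at under 2-fold, namely Asl, Apcs, Sult2a2, Acaa2, Igf2, Gsta1, Acsl1, Acaa1b, Apoc4, Ahcy, Itih3, Amacr, Lcat, Igfbp2, Cyp2b2, Cpt1a, Cyp2a1, Akr1d1, Gstm1, Gstm2, Aldh2, Klkb1, Aldh3a2, Por, Uox and Apom. The last 25 were not highest there by such a probe set, namely Cat, Qdpr, Khk, Apoe, Selenop, Oat, Slco1a4, Cbs, F10, Hnf4a, Thpol1, Scp2, Agxt, Csad, Ghr, Got1, Cebpd, Igf1, Nr0b2, Acly, Gstp1, Fasn, Igfals, Agt and Dbp. Dimmer probe sets, under 200 on 12-day replicate 1, gave another order for some of these genes. The clotting factor F10 read 159 there and 40 on each other array by its dimmer probe set. The urate oxidase Uox read 143 against 62.8, 63.6 and 68.5, and the urea cycle enzyme Asl 199.6 against 95.0, 91.1 and 74.3, both above 2-fold. Agxt, Selenop and Ghr were also highest on 12-day replicate 1 by a dimmer probe set. Many of the last group, such as Apoe, Igf1 and the lipid-making enzyme Fasn, are known to be made in nervous tissue too.

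Probe sets of one gene did not always behave alike. Of the 51 genes 25 had several probe sets on the array, for 8 of which all were members, and 17 had at least 1 that was not. Of the 25 non-member probe sets of these genes, 5 lay at the floor on all arrays, 14 were highest on 12-day replicate 1, and 4 read at least 200 there. An Alb probe set that was no member read 126 on 12-day replicate 1 and 104, 103 and 123 on the others. One of Ahsg read 130 against 150, 178 and 167. By the letters s, f, i or r in the suffix of their names, 21 members are marked as shared between transcripts, family-wide or incomplete. By this count 42 genes had a member without such a mark. Names with the letter g in the suffix were counted as unmarked. The 9 genes without an unmarked member were Apoa1, Cps1, Cyp2d2, Cyp3a2, Cyp3a23-3a1, Pck1, RatNP-3b, Rbp4 and Sult2a6.

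The low values of the members on the other 3 arrays were compared by order. Before the floor was set, their median was 19.98 on 2-day replicate 1, 23.6 on 2-day replicate 2 and 27.9 on 12-day replicate 2, against 553 on 12-day replicate 1. Of the 74 members 51 (68.9%) were higher on 12-day replicate 2 than on 2-day replicate 1, as were 48.0% of 2542 other probe sets under 100 on all arrays. Between 2-day replicate 2 and 2-day replicate 1 the share was 60.8%, against 49.7%, and between 12-day replicate 2 and 2-day replicate 2 it was 54.1%, against 48.7%. Most of these values lie near or under the floor, where intensities carry little order. Above the floor were 17 members on 2-day replicate 1, 25 on 2-day replicate 2 and 27 on 12-day replicate 2. Apoc1 read 240 on 2-day replicate 2. Several probe sets of one gene were counted separately.

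The ages were compared over all probe sets bright enough on at least 2 arrays, 5432 in number, of which 14.8% were called by limma at an adjusted p under 0.05 and 7.77% as higher at the 12-day label. Of the members 9 met this filter, namely Ahsg, Apoc1, Hp, Itih4, Mat1a, Mgst1, Serpina3l, Serpina3n and Vtn, and 65 did not. The rule set 12-day replicate 1 apart from 12-day replicate 2, which fixes a wide spread within that age, so the fit is no test of the members. It called 0 of the 9 at an adjusted p under 0.05, and 2 had an unadjusted p under 0.05, as did 1686 of all 5432 probe sets. For haptoglobin the mean log2 value was 5.94 ± 0.29 (SD, n = 2) over the 2-day arrays and 9.24 ± 3.20 (SD, n = 2) over the 12-day arrays. The median difference of the 9, 12-day minus 2-day label, was 1.26 with all arrays and 0.00 without 12-day replicate 1. Without 12-day replicate 1 the fit called 0 of the 9 and 8.12% of all probe sets, in either direction. Without 12-day replicate 2 it called all 9 as higher, which restates how they were chosen, and 4.03% of all probe sets as higher. The 8.12% and the 4.03% count different directions and so cannot be compared.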

How the data were processed

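Each of 8728 probe sets has a linear intensity for every array in the table the authors deposited. How the authors obtained the intensities is not given in the sources used here. Symbols came from GEO's platform annotation, updated by gene identifier to GRCr8 RefSeq names. Of the probe sets 6996 have 1 symbol (6975 with a current gene), 308 have several and 1424 none. Values were quantile normalized (limma 3.58.1, R 4.3.3) and floored at 40. Ages were compared with lmFit and eBayes with trend, 12-day minus 2-day label, adjusted by Benjamini-Hochberg, over probe sets above the 40th percentile of at least 2 arrays. List medians and 2-fold counts use, for each gene, the probe set with the highest mean of the 4 arrays. Named were all members, with values on every array for the 5 highest of each list, the 3 on each side of each threshold, liver list genes at 200 or more that are not members, and members in no list. Other genes were named after their values were seen. The members, lists and tests were chosen with earlier results of these data known. Promoter letters were searched in RefSeq sequences. Figures used matplotlib 3.10.9. The number of arrays limits the precision.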

Additional observations from a re-analysis of the deposited data

Results flagged for a closer look

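A signal was also present in probe sets that carry no single gene symbol and so could not be members. On 12-day replicate 1, 16 of them, 9 with several symbols and 7 with none, passed both thresholds. They read between 202.6 and 2854 on that array, at 4.10-fold to 46.5-fold above the highest other array, with a median of 6.77-fold, and 5 of them lay at the floor on the other 3 arrays. No gene was named from them. Of the 92 probe sets past both thresholds, a further 2 carried the symbol H19.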

How the results depend on the processing

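The number of members was 74, of which 65 were in a liver list. Requiring a level of 400 left 48 members. All other settings, namely the values as deposited, scaling to one median, a floor of 20 or 100, a level of 100, 2 or 5 times the highest other array, and unmarked probe sets (chosen after seeing the data), gave 53 to 96 members and 45 to 79 in a liver list. Without each other array in turn there were 74 to 88 members and 65 to 67 in a liver list, and without 12-day replicate 1 the rule has no value. The age comparison called 806 probe sets, but 78 without the filter on dim probe sets, 349 with a floor of 100, and 267 to 497 without each array in turn. Of the members it called 0, but 1 with the replicate block and 0 to 9 without each array in turn, the 9 without 12-day replicate 2, which restates how they were chosen. The cause was not tested. Arrays of the same replicate number showed no shared deviation, since the differences between replicates correlated at -0.08 between the ages. This correlation cannot decide whether the arrays were paired. The block gave 769 calls over all probe sets. Signals under the floor of 40 limit the folds to lower bounds.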

Other observations

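Genes outside every list also stood at least 2-fold above the highest other array on 12-day replicate 1, 25 in all, of which 19 were not member genes. Some of them are given here. Gulo, an enzyme of vitamin C synthesis, read 158 on 12-day replicate 1 and 40 on the other arrays. Pon1, a paraoxonase of plasma lipoprotein, read 134 against the floor, and the steroid dehydrogenase Hsd17b13 read 136 against 62.0 on 12-day replicate 2 and 48.6 and 40 on the 2-day arrays. Aqp9, a channel for glycerol, read 145 against 45.9, 70.3 and 61.4. The GABA receptor subunit Gabrr3 read 197 on 12-day replicate 1 and 46.8, 44.6 and 54.1 on the others, and Id1, an inhibitor of differentiation, read 421 against 177, 103 and 143. Amh, the anti-Mullerian hormone, read 137 against 40, 52.2 and 40. All of these were chosen after their values were seen.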
